A study of Mus musculus with 4 samples.

Results

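The nuclear genes of oxidative phosphorylation were followed through SCC7 tumours of control mice and of mice given an antibody against CD71. Members were the mouse genes whose symbols start with Ndufa, Ndufb, Ndufc, Ndufs, Ndufv, Uqcr, Atp5 or Cox4 to Cox8, together with Sdha, Sdhb, Sdhc, Sdhd and Cyc1, and 19 pseudogenes with such symbols were left out. The rule gave 97 genes, of which 94 had a transcript in the files, among 17574 genes in all. Ndufb1, Cox7b2 and Cox8c had no matched transcript and were not analysed here. Complex I held 39 of the 97 genes, complex II 4, complex III 9, complex IV 20 and complex V 17. Another 8 genes carry the prefix Ndufaf, which names complex I assembly factors. These are not subunits and are described apart. Ndufa4 and its paralogue Ndufa4l2 were placed with complex IV, of which the Ndufa4 protein is now counted as a subunit.

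SCC7 is a squamous carcinoma cell line of C3H mice that is used as a transplantable model of head and neck cancer. Its cells were injected under the skin of the back of C3H/HeN mice, all labelled wild type. The anti-CD71 group received the antibody on days 6 and 9, and the labels do not say what the control group received. CD71, the receptor for transferrin, imports iron into cells. Whole tumours of both groups were taken on day 10, and RNA sequencing gave 2 libraries per group. The labels do not give the age of the mice, nor whether the 2 libraries of a group came from different animals, so p-values measure the spread between these libraries, which may be technical. Values are TPM, an abundance corrected for transcript length and scaled to the same total in each library. Control replicates 1 and 2 and anti-CD71 replicate 2 had 59881 transcripts apiece, while anti-CD71 replicate 1, in the form used here, had 13586 of them (22.69%). A transcript beyond its end was treated as missing. The read depth is unknown because TPM does not keep it.

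Oxidative phosphorylation takes electrons from NADH at complex I and from succinate at complex II, passes them through ubiquinone, complex III and cytochrome c to oxygen at complex IV, and uses the proton gradient so formed to make ATP at complex V. Complexes I, II and III hold iron-sulfur clusters, complexes I and II hold flavins, and complexes II, III and IV hold haem, so that the chain depends on iron supply. Apart from complex II, each complex combines nuclear subunits with subunits that mitochondrial DNA encodes. Transcription factors known to bind promoters of many nuclear subunit genes include NRF1, the ETS protein GABPA and YY1.

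The promoters of several members are shown because the letters that these factors are known to recognise can be read in them directly. The sequences come from RefSeq on GRCm38.p6 and run 5′ to 3′ on the strand of the gene, covering the 250 bases before the annotated start. Capitals mark exact matches, on either strand, to the NRF1 core GCGCATGC, the ETS core CCGGAAGT or the YY1 core AAGATGGC. Atp5k encodes subunit e of ATP synthase, and its window at chr5:108434400-108434649 lies on the minus strand. Ndufaf4 encodes a complex I assembly factor, and its window at chr4:24897833-24898082 lies on the plus strand. In both windows the NRF1 core occurs on each strand, and the overlapping matches form 1 palindrome. Uqcr11 encodes a small subunit of complex III, and its window at chr10:80406822-80407071 on the minus strand holds the ETS core. Atp5j encodes coupling factor 6 of the ATP synthase stalk. Of its annotated starts in this table, the downstream start has the window chr16:84834977-84835226 on the minus strand, with the YY1 core. Cox7c encodes a small subunit of complex IV, with a window at chr13:86046796-86047045 on the minus strand. Ndufb7 encodes a subunit of the membrane arm of complex I, with a window at chr8:83566508-83566757 on the plus strand. Neither of these last windows held any of the cores.
Atp5k: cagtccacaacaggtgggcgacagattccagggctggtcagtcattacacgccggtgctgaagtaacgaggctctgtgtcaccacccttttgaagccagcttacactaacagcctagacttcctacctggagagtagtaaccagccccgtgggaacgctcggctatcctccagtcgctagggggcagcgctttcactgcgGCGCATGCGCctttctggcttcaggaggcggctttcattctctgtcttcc
Ndufaf4: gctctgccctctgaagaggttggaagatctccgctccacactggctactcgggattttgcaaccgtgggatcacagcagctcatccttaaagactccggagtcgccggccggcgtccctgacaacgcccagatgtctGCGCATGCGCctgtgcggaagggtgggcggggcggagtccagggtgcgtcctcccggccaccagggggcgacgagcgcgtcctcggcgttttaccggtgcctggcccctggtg
Uqcr11: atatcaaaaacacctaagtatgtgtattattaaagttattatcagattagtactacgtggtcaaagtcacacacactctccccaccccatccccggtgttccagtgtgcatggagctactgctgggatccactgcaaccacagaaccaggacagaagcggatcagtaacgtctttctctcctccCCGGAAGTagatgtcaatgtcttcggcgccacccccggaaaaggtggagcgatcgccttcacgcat
Atp5j: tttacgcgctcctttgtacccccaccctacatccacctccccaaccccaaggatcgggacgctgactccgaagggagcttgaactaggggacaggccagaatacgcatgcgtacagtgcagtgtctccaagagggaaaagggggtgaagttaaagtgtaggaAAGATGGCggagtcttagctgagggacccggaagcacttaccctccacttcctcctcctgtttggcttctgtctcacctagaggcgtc
Cox7c: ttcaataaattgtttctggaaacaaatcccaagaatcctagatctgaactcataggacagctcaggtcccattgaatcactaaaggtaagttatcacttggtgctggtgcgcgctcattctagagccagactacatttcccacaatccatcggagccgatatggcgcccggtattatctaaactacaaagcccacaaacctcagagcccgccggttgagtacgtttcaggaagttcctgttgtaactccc
Ndufb7: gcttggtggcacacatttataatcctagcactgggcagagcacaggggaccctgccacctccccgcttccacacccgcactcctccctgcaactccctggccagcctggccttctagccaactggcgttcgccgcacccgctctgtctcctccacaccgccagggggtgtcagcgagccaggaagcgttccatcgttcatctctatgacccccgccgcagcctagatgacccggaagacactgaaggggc

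Over windows of 300 bases (250 before and 50 after the start), RefSeq held 83 windows for 78 members. The NRF1 core was found in 12 of them (14.5%), against 5.12% of 12241 windows of tested genes and 2.71% of all 32851 windows. The YY1 core was found in 11 member windows (13.3%), against 4.38% and 2.75%. The ETS core was found in 5 member windows (6.02%), against 8.11% and 3.89%. The median GC content of the windows was 58.3% for members and 60.7% for tested genes. A match of letters is not a binding site, and these windows carry no measurement of binding. Among tested members, the 12 with the NRF1 core had a median log2 change of 0.07 between anti-CD71 replicate 2 and the controls, from -0.13 to 0.68. The 11 with the YY1 core had a median of 0.10, the 5 with the ETS core 0.06, and the 46 whose windows held none of the cores 0.05. These medians lay within 0.05 of each other.

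The tumours were mixtures, and markers of several cell types differed between the libraries. Markers of squamous tumour cells summed to 2027.01 and 2101.39 TPM in the controls and to 2536.89 TPM in anti-CD71 replicate 2. There, 10 of 10 lay above both controls. Most of the sum was Krt8 (1132.27, 1202.77 and 1255.90 TPM) and Krt18 (657.36, 680.49 and 893.37 TPM). Krt5 and Krt6a are keratins of the basal and activated squamous layer. In the same order of libraries, Krt5 had 0, 0 and 31.4 TPM and Krt6a had 0.03, 0 and 9.25 TPM. Krt5 and Krt14 are also in the epidermal list below. Krt14 had 0.09, 0.10 and 36.37 TPM, and Krt17 had 0.06, 0.14 and 26.84 TPM. Macrophage markers summed to 3563.91 and 4378.18 TPM in the controls and to 1840.39 TPM in anti-CD71 replicate 2, where 9 of 10 lay below both controls. T and NK cell markers summed to 234.96 and 223.66 TPM against 59.7 TPM, erythroid markers to 3118.36 and 3427.97 TPM against 886.93 TPM, and neutrophil markers to 17.02 and 11.51 TPM against 509.2 TPM. Epidermal markers summed to 1.78 and 2.04 TPM against 107.07 TPM. Of the 10, 8 were listed at 0 in at least 1 control, among them Krt1 (0, 0 and 5.21 TPM) and Lor (0, 0 and 1.75 TPM). These sums leave out anti-CD71 replicate 1. Among fully listed markers, Lce1a1 had 0 TPM there, against 1.15 TPM in replicate 2. Listed transcripts of Krtdap and Sbsn, with 35.61% and 58.82% of their TPM, were also at 0 in replicate 1. Those of S100a9 and Cxcr2, with 85.67% and 86.21% of their TPM, had 142.39 and 1.16 TPM there. Over all transcripts S100a9 had 3.67 and 1.83 TPM in the controls, and Cxcr2 0.15 and 0.09 TPM. The fully listed neutrophil markers Elane and Ltf had 0 and 0.09 TPM in replicate 1. Listed transcripts of Alas2, with 80.44% of its TPM, had 5.81 TPM there, against 9.84 and 10.21 TPM over all transcripts in the controls. Gzmb had 79.54 TPM in replicate 1 and 27.62 TPM in replicate 2, and Ncr1 5.1 and 2.52 TPM. Csf1r was similar in both, with 69.38 and 66.83 TPM. Gzmb, Ncr1 and Csf1r lay below both controls in each. Every level below is from whole tumour RNA, in which fewer cells of a type and less RNA per cell cannot be told apart. The part of these cell mixtures in the members' values was not tested.

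Transcripts of the 94 members made up 2.65% of all TPM in each control library and 2.73% in anti-CD71 replicate 2. Their summed level was 26517.7 and 26473.2 TPM in the controls and 27343.5 TPM in anti-CD71 replicate 2, which is 3.2% above the control mean. Complex V, the ATP synthase, had the highest levels, with a median of 591.3 TPM per gene in control replicate 1. Complex IV, cytochrome c oxidase, followed with 285.0 TPM, and complexes III, I and II had medians of 186.7, 148.4 and 145.6 TPM in that library. The assembly factors of complex I had a median of 15.9 TPM. Control replicate 2 gave the same order for complexes V, IV and III, and complexes I and II had nearly equal medians there (145.2 and 146.2 TPM). The most abundant members were Cox6c of complex IV and Atp5b, the catalytic beta subunit of complex V. Cox6c had 1105.18 and 1095.30 TPM in the controls and 1232.65 TPM in anti-CD71 replicate 2, and Atp5b had 1094.16, 1064.18 and 1086.43 TPM.

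**Figure D1:**
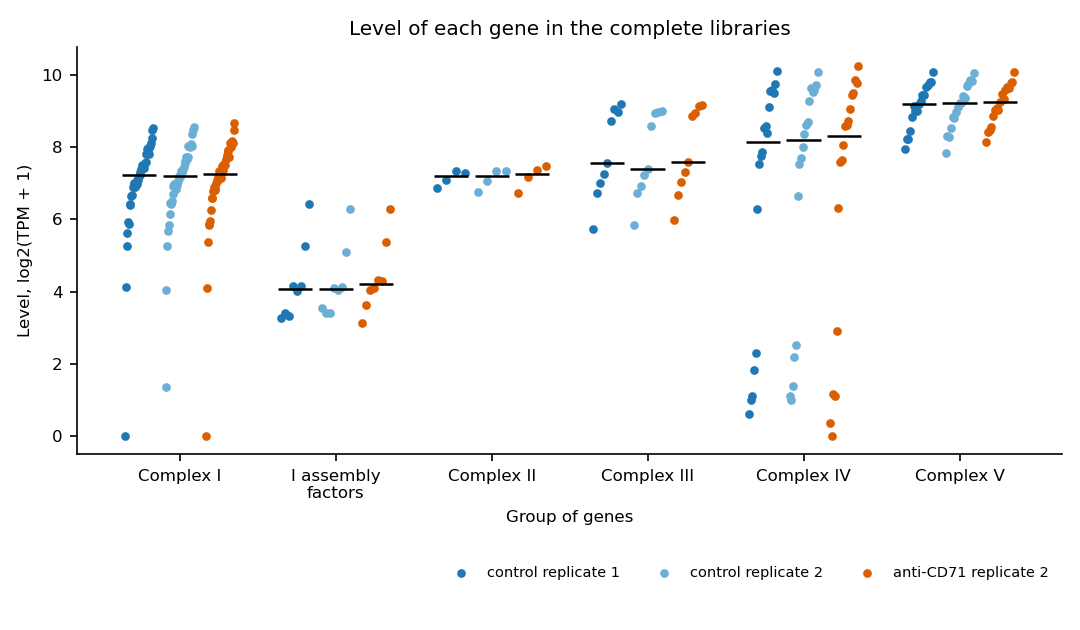
Level of every member as log2(TPM + 1) in both controls and anti-CD71 replicate 2, grouped by complex; each point is 1 gene and each black line the median of the group in that library. The 3 libraries give nearly the same picture in each complex, complex V sits highest and the low points of complex IV are isoforms known from particular tissues.

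No member was called changed. When anti-CD71 replicate 2 was set against both controls, 91 members could be tested with limma on log2(TPM + 1), and 0 passed a Benjamini-Hochberg adjusted p of 0.05 (limma), against 2.86% of all 11982 genes tested. At an unadjusted p under 0.05 there were 12 members, 10 higher and 2 lower in anti-CD71 replicate 2, which is 13.2% of the members against 24.7% of all genes. The median log2 change was 0.06 for the members and -0.01 for all genes tested. Among the 4469 genes with a mean level of at least log2(33), corresponding to 32 TPM, the median was 0.04. Anti-CD71 replicate 2 lay above both controls for 53 members (58.2%, against 39.5% of all genes) and below both for 21 (23.1%, against 42.5%). Among those abundant genes the same shares were 49.3% and 35.6%. Members that did not reach 1 TPM in 2 libraries were left untested. These were Ndufb4b, a near copy of Ndufb4, and Cox6b2 and Cox8b, isoforms of complex IV. Because only 1 treated library enters, its variation is taken to equal that of the controls.

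The size of the differences was small beside that of other genes. The log2 change was within 0.25 of 0 for 84 of 91 members, and the 95% interval lay within 0.5 of 0 on either side (a 1.41-fold difference) for 82 members, or 90.1%, against 57.8% of all genes tested and 76.9% of the abundant genes. The SD of the log2 changes was 0.18 over the members, 0.355 over all genes and 0.291 over the abundant genes. The members also differed less between the 2 controls, with an SD of 0.123 against 0.224 for all genes and 0.142 for the abundant genes. The change was smaller than the difference between the controls for 34 members (37.4%, against 32.7% of all genes). A p above the threshold does not show that a level stayed the same, and the intervals give the differences these libraries leave possible.

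**Figure D2:**
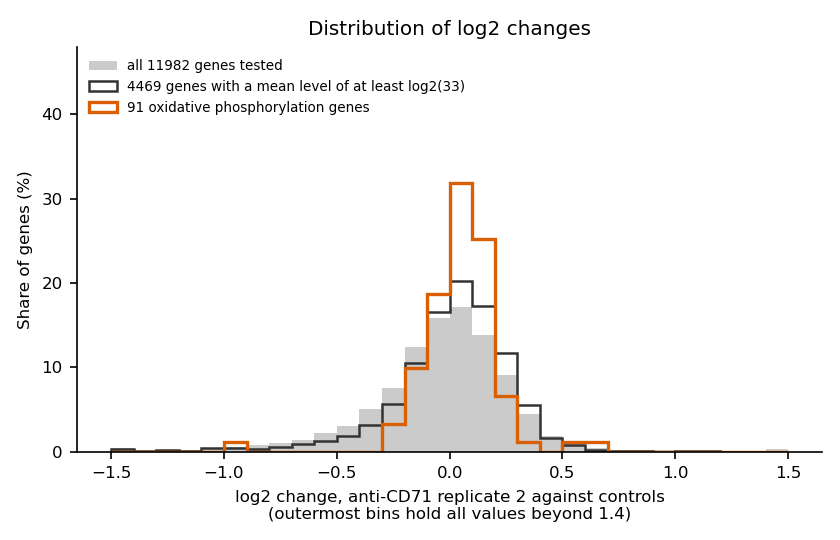
Share of genes (percent) in each bin of log2 change of anti-CD71 replicate 2 against the controls, for all 11982 genes tested (grey), the 4469 abundant genes (dark line) and the 91 tested members (orange). The members pile up near 0, with a median of 0.06 and an SD of 0.18 against 0.355 for all genes.

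Complex I, which oxidises NADH, had 37 tested subunits with log2 changes between -0.28 and 0.20 and a median of 0.06. Its summed level was 6064.4 and 6101.0 TPM in the controls and 6248.2 TPM in anti-CD71 replicate 2. All 37 intervals lay within 0.5 of 0, the widest bounds being -0.46 and 0.45. Anti-CD71 replicate 2 was above both controls for 21 of the 37 and below both for 6. Ndufb9, the subunit with the highest mean level in the complex, had 368.38 and 374.15 TPM in the controls and 406.44 TPM in anti-CD71 replicate 2. This was above both controls, with a log2 change of 0.13 against their mean (SE 0.06, limma adjusted p = 0.274).

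Ndufb7, whose promoter is printed above, had the lowest change of the complex. Its level was 251.62 and 263.29 TPM in the controls and 211.81 TPM in anti-CD71 replicate 2. The treated library was below both controls, and the log2 change of -0.28 (SE 0.07, limma adjusted p = 0.104, 95% interval -0.46 to -0.10) was not called. Ndufa3, another membrane arm subunit, had 303.61, 330.39 and 274.75 TPM in the same order of libraries, a log2 change of -0.20 (SE 0.08, limma adjusted p = 0.202). Other members of the membrane arm stood on the other side of the controls. Ndufb6 had 136.04, 141.86 and 160.14 TPM, with a log2 change of 0.20 (SE 0.07, limma adjusted p = 0.185), and Ndufb10 had 224.60, 201.93 and 242.49 TPM with a change of 0.19. Membrane arm subunits therefore lay above and below the controls in the same library.

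Ndufs4, an accessory subunit of the arm that binds NADH, had 47.93 and 50.49 TPM in the controls and 56.24 TPM in anti-CD71 replicate 2. Its log2 change was 0.19 (SE 0.09, limma adjusted p = 0.255). Ndufab1, which is also the mitochondrial acyl carrier protein, had 171.64, 188.35 and 182.68 TPM and lay between the controls. Ndufa11 had the lowest level among the tested subunits of the complex, with 16.38, 15.51 and 16.11 TPM. Ndufb4 had 247.45, 210.26 and 238.32 TPM and Ndufb4c 122.31, 125.30 and 112.76 TPM. Since Ndufb4, Ndufb4b and Ndufb4c are near copies, reads may have been split between them and their separate values are uncertain. The same holds for members with pseudogenes, such as Atp5k and Uqcrh.

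**Figure D3:**
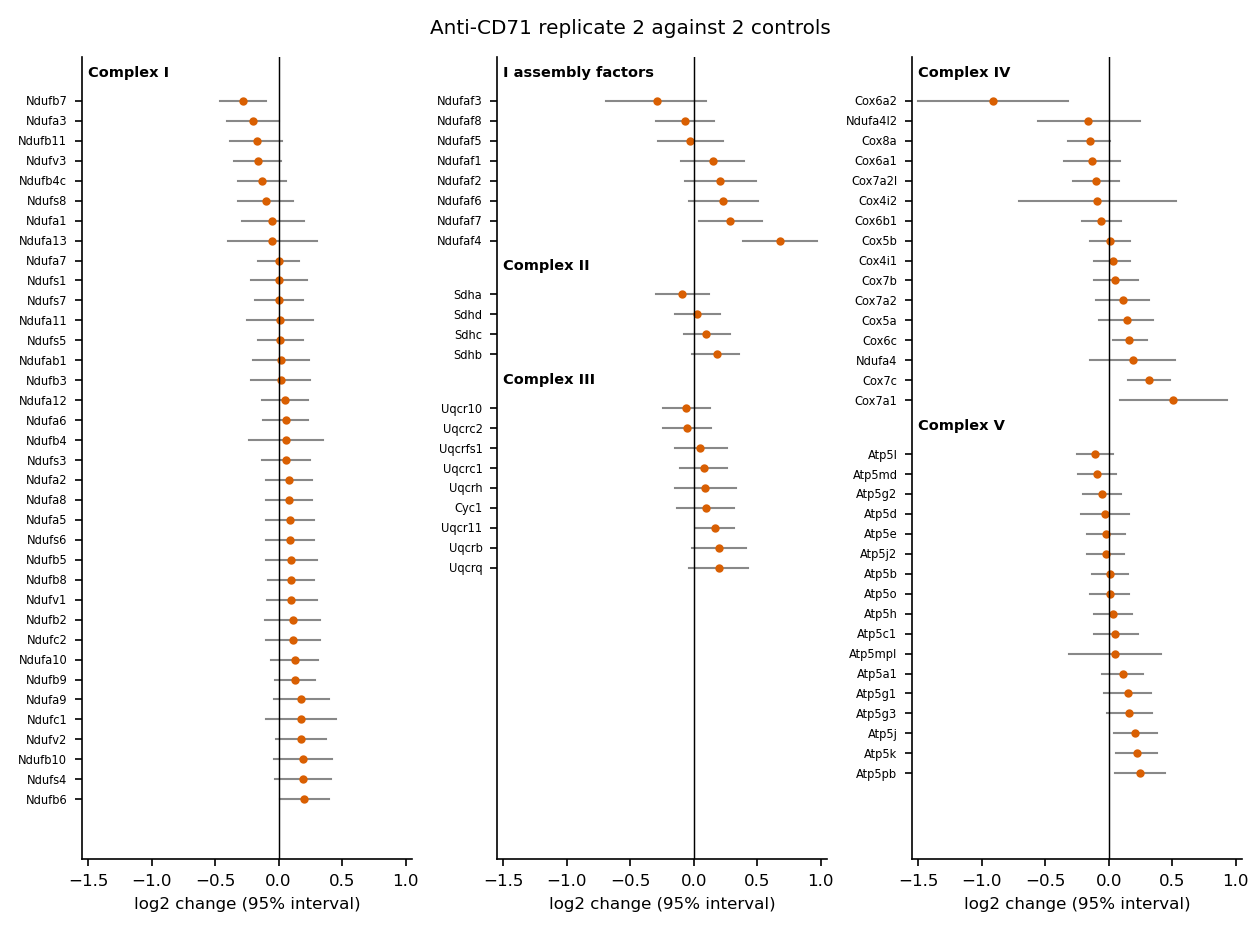
Log2 change of tested members in anti-CD71 replicate 2 against the 2 controls, with its 95% interval from limma, by complex; the vertical line marks no difference. Most intervals cross 0, and 9 of the 91 tested reach beyond 0.5 on either side.

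The 8 assembly factors of complex I had lower levels and wider intervals than the subunits. Their median log2 change was 0.18, with 5 above both controls and 3 below both. Ndufaf4 had 8.95 and 9.68 TPM in the controls and 15.54 TPM in anti-CD71 replicate 2. The treated library stood well above the controls, with a log2 change of 0.68 against their mean (SE 0.11, 95% interval 0.39 to 0.97). The limma adjusted p of 0.0523, the smallest of all members, just missed the threshold. Ndufaf3, which works with Ndufaf4, had 8.67, 10.68 and 7.68 TPM and lay below both controls, with a log2 change of -0.29 (SE 0.15, limma adjusted p = 0.306). Ndufaf7, a mitochondrial methyltransferase, had 15.04, 15.47 and 18.87 TPM, a log2 change of 0.29 (SE 0.10, limma adjusted p = 0.162). Ndufaf5, which modifies Ndufs7, had 16.77, 16.15 and 16.13 TPM. Its partner Ndufaf8, the most abundant of the 8, had 84.42, 77.74 and 77.19 TPM. Ndufaf5 and Ndufaf8 thus lay close to the lower control.

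Complex II, succinate dehydrogenase, links the citric acid cycle to the chain and has 4 subunits, all nuclear. Sdhb, the iron-sulfur subunit, had 156.42 and 160.76 TPM in the controls and 179.16 TPM in anti-CD71 replicate 2, above both controls with a log2 change of 0.18 (SE 0.07, limma adjusted p = 0.218). Sdha, the flavin subunit, had 115.17, 108.42 and 104.90 TPM and lay below both controls, with a change of -0.09. Sdhc and Sdhd anchor the enzyme in the membrane and hold its haem. Sdhc had 134.70, 132.14 and 143.41 TPM, and Sdhd had 160.39, 160.33 and 163.89 TPM. The mean levels of the 4 genes, which form a complex with 1 copy of each, differed by 1.5-fold between Sdha and Sdhb. All 4 intervals lay between -0.30 and 0.36.

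Complex III, which passes electrons from ubiquinol to cytochrome c, had 9 tested genes with a median log2 change of 0.09 and a range from -0.06 to 0.20. Its summed level was 2671.7 and 2498.4 TPM in the controls and 2751.2 TPM in anti-CD71 replicate 2. Uqcr11 had 504.82 and 503.12 TPM in the controls and 566.47 TPM in anti-CD71 replicate 2. The treated library lay above controls that nearly coincided, with a log2 change of 0.17 (SE 0.06, unadjusted p = 0.0369, limma adjusted p = 0.175). Uqcrq had 52.42, 56.64 and 62.64 TPM and Uqcrb 424.37, 384.25 and 464.77 TPM, each with a log2 change of 0.20. Both are small subunits that surround the catalytic core. Uqcr10 had 534.76, 498.69 and 496.05 TPM. Uqcrh, the hinge protein next to cytochrome c1 and the most abundant gene of the complex, had 583.51, 511.05 and 580.83 TPM and lay between the controls. Uqcrc1 had 151.64, 149.68 and 159.00 TPM and Uqcrc2 104.73, 104.93 and 101.30 TPM. These are the core subunits of the matrix side, and they lay on opposite sides of the controls.

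Complex IV reduces oxygen to water. Its 16 tested genes had a median log2 change of 0.02 and a range from -0.91 to 0.51, the widest of the complexes. The widest values belonged to isoforms with levels under 10 TPM. Cox7c had 723.41 and 764.17 TPM in the controls and 926.11 TPM in anti-CD71 replicate 2. The treated library was above both controls, with a log2 change of 0.32 against their mean (SE 0.06, 95% interval 0.15 to 0.48). The limma adjusted p was 0.0727. Cox6c, with the values given above, had a log2 change of 0.16 (SE 0.05, limma adjusted p = 0.155). Ndufa4 had 334.94, 411.99 and 422.77 TPM, so that the controls differed from each other by more than anti-CD71 replicate 2 did from the higher of them.

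Other abundant subunits of complex IV were below both controls or close to them. Cox8a had 751.87 and 798.67 TPM in the controls and 695.94 TPM in anti-CD71 replicate 2, a log2 change of -0.15 (SE 0.07, limma adjusted p = 0.230). Cox6a1 had 553.31, 619.07 and 534.49 TPM and Cox6b1 775.55, 744.76 and 730.01 TPM, both below the controls. Cox4i1, the largest nuclear subunit, had 864.78, 853.98 and 874.53 TPM, with a log2 change of 0.03 and an interval from -0.12 to 0.17. Cox5a had 367.84, 332.73 and 384.39 TPM. Cox7a2l, a factor of respiratory supercomplexes that shares the Cox7 prefix, had 216.76, 208.87 and 198.19 TPM. The subunits of this complex thus did not all lie on the same side of the controls.

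Several complex IV subunits have isoforms that are known from muscle, brown fat, lung or testis. Here the widely expressed isoform was the abundant form in each pair. Cox6a2, the heart and skeletal muscle form, had 2.54 and 3.57 TPM in the controls and 1.14 TPM in anti-CD71 replicate 2, which was 0.457%, 0.573% and 0.213% of the Cox6a total. Its log2 change was -0.91 (SE 0.23, limma adjusted p = 0.103). Cox7a1, another heart and muscle form, had 3.88, 4.74 and 6.53 TPM, or 1.62%, 1.82% and 2.41% of the sum of Cox7a1 and Cox7a2. Its log2 change was 0.51 (SE 0.16, limma adjusted p = 0.151), so these muscle isoforms lay on opposite sides of the controls. Cox8b had 1.00, 0.98 and 0 TPM, and Cox6b2, the testis form, had 0.53, 1.14 and 0.28 TPM. Cox4i2, known from lung and oxygen-sensing cells, had 1.15, 1.62 and 1.23 TPM.

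Skeletal muscle markers summed to 210.47 and 60.35 TPM in the controls and 136.23 TPM in anti-CD71 replicate 2, between the controls. Of the 12 muscle markers, 3 lay above and 2 below both controls. Brown adipocyte markers summed to 1.25, 2.9 and 2.33 TPM, with Ucp1, Cidea and Elovl3 listed at 0 in at least 1 library. Adipocyte markers summed to 86.68, 114.04 and 131.87 TPM, with 7 of 8 above both controls. Most of that sum was Fabp4 (77.37, 103.77 and 105.33 TPM), and Cfd was called higher (1.90 and 0.99 TPM against 15.32 TPM, limma adjusted p = 0.0249). Pericyte and smooth muscle markers, cells that are known to express Ndufa4l2, summed to 82.51, 91.91 and 74.36 TPM. Of these 10 markers, 4 lay above and 5 below both controls in anti-CD71 replicate 2. Ndufa4l2, a paralogue of Ndufa4 that is induced in low oxygen, had 77.21, 99.19 and 78.27 TPM, or 18.7%, 19.4% and 15.6% of the sum of both paralogues. Its log2 change was -0.16 (SE 0.16, limma adjusted p = 0.568). The part of these cell types in the isoform levels was not tested.

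**Figure D4:**
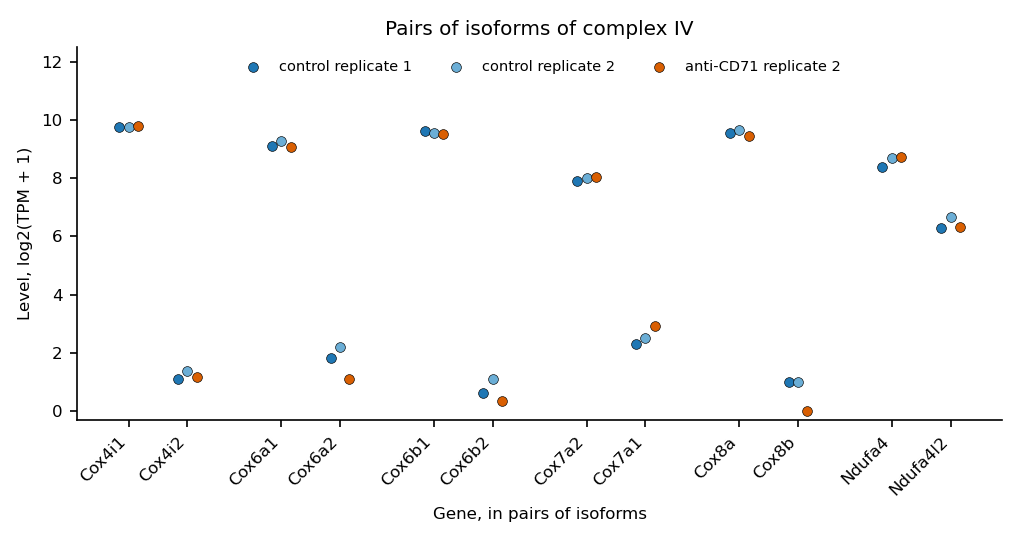
Levels as log2(TPM + 1) of paired isoforms of complex IV in both controls and anti-CD71 replicate 2; each point is 1 library. The widely expressed form of each pair stands far above its partner, except for Ndufa4 and Ndufa4l2, where the partner holds 15.6% to 19.4% of the pair.

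Complex V, the ATP synthase, had 17 tested genes with log2 changes between -0.11 and 0.25 and a median of 0.03. All 17 intervals lay within 0.5 of 0. The catalytic head did not stand out, as Atp5a1, the alpha subunit, had 517.20 and 499.72 TPM in the controls and 547.28 TPM in anti-CD71 replicate 2, and Atp5b lay between the controls. Subunits of the central stalk gave similar values. Atp5c1 had 352.63, 368.96 and 373.90 TPM, Atp5d 517.58, 557.59 and 525.96 TPM, and Atp5e 814.49, 836.18 and 815.37 TPM. Of these, Atp5d and Atp5e lay between the controls.

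The peripheral stalk holds the head still while the central stalk turns. Atp5pb, its subunit b, had 244.74 and 228.61 TPM in the controls and 280.52 TPM in anti-CD71 replicate 2, above both with a log2 change of 0.25 (SE 0.08, limma adjusted p = 0.143). Atp5j had 300.99, 311.19 and 354.93 TPM, a log2 change of 0.21 (SE 0.07, limma adjusted p = 0.144). Atp5h, subunit d of the same stalk, had 591.28, 602.85 and 608.90 TPM, and Atp5o, which joins the stalk to the head, had 461.37, 461.53 and 464.33 TPM. Atp5o thus varied by less than 3 TPM over the 3 libraries. Genes of the membrane part that holds ATP synthase dimers together lay on both sides of the controls. Atp5k had 620.59, 598.86 and 709.40 TPM (log2 change 0.22), Atp5l had 853.28, 863.41 and 795.13 TPM (log2 change -0.11), and Atp5md had 699.82, 686.95 and 651.09 TPM (log2 change -0.09).

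The ring of c subunits is made from 3 genes that encode the same mature protein with different import sequences. Atp5g2 supplied 47.1% and 48.8% of their summed TPM in the controls, against 44.3% in anti-CD71 replicate 2. Atp5g3 supplied 37.1%, 34.6% and 38.5%, and Atp5g1 15.7%, 16.6% and 17.2%. Atp5g2 was therefore the main source in each of the 3 libraries. Their log2 changes were -0.05 for Atp5g2, 0.16 for Atp5g3 and 0.15 for Atp5g1, none of them called.

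A list of 10 subunits that carry an iron-sulfur cluster, flavin or haem was examined as a group. The list leaves out the flavin subunit Sdha, which lay below both controls (log2 change -0.09). None was called by limma, against 2.86% of all genes tested, and 0 of the 10 had an unadjusted p under 0.05, against 24.7%. Their median log2 change was 0.08, with a range from -0.10 to 0.18 and all 10 intervals within 0.5 of 0. Ndufv1, which binds the flavin of complex I, had 101.69 and 103.23 TPM in the controls and 110.08 TPM in anti-CD71 replicate 2, and Ndufv2 had 84.79, 84.78 and 95.98 TPM. Ndufs1, with the largest number of clusters in the complex, had 59.68, 56.66 and 58.10 TPM, Ndufs7 had 117.30, 120.21 and 118.71 TPM, and Ndufs8 had 128.24, 119.61 and 115.16 TPM. Ndufs1 and Ndufs7 lay between the controls. Uqcrfs1, the Rieske iron-sulfur protein of complex III, had 128.73, 120.67 and 129.47 TPM, and Cyc1, cytochrome c1, had 186.73, 169.42 and 190.63 TPM.

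In the comparison of all 4 libraries, 18 members could be tested, those whose transcripts listed for anti-CD71 replicate 1 carry at least 90% of the gene's TPM. They comprised 9 genes of complex I and 3 each of complexes III, IV and V. None was called by limma, against 4.29% of 1563 genes tested, and 1 member had an unadjusted p under 0.05 (5.56%, against 26.6% of all genes). The median log2 change was 0.03 for the members and -0.01 for all genes, and all 18 intervals lay within 0.5 of 0. Both anti-CD71 libraries were above both controls for 6 of the 18 (33.3%, against 28.3% of all genes) and below both for 2 (11.1%, against 31.1%). Among the 650 genes with a mean level of at least log2(33), these shares were 40% and 21.8%, and the median log2 change was 0.06. The median was 0.11 in complex I, 0.02 in complexes III and V and -0.06 in complex IV. Log2 differences between the 2 anti-CD71 libraries had an SD of 0.13 over the members and 0.277 over the 1556 genes tested in both comparisons, and those between the controls 0.113 and 0.221.

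Atp5k was the member past the unadjusted threshold. Its level was 620.59 and 598.86 TPM in the controls against 759.43 and 709.40 TPM after anti-CD71, so the groups did not overlap. The log2 change was 0.27 (SE 0.06, 95% interval 0.11 to 0.42), with an unadjusted p of 0.00638 and a limma adjusted p of 0.0797. Uqcrb had 424.37 and 384.25 TPM in the controls against 443.74 and 464.77 TPM, and Ndufb9, over its shared transcript, had 366.57 and 373.30 TPM against 400.91 and 402.61 TPM. Ndufb6 had 136.04 and 141.86 TPM against 148.33 and 160.14 TPM, and Ndufv2 had 84.79 and 84.78 TPM against 88.26 and 95.81 TPM. In Cox5b, with 387.07 and 389.88 TPM against 423.60 and 390.01 TPM, the lower anti-CD71 library lay barely above the higher control. Uqcrc2 and Atp5g2 were the members below both controls. Uqcrc2 had 104.73 and 104.93 TPM in the controls against 96.10 and 101.30 TPM, and Atp5g2 had 892.45 and 929.62 TPM against 867.00 and 879.21 TPM.

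The remaining 10 members overlapped between the groups. Atp5md had 699.82 and 686.95 TPM in the controls and, after anti-CD71, 756.91 TPM in replicate 1 and 651.09 TPM in replicate 2, so that the treated libraries lay on opposite sides of both controls. Cox8a had 768.68 TPM in anti-CD71 replicate 1, between the controls, and 695.94 TPM in replicate 2, below them. Cox6a1 likewise had 586.16 and 534.49 TPM, Ndufa3 328.13 and 274.22 TPM over its shared transcript, and Ndufs8 116.12 and 105.90 TPM. The lower values of Cox8a and Cox6a1 in anti-CD71 replicate 2 were thus not seen in anti-CD71 replicate 1. In Ndufb10, Ndufc1, Ndufc2 and Uqcrfs1 the first anti-CD71 library lay between the controls and the second above them. Ndufa1 had 182.07 and 161.44 TPM in the controls against 158.13 and 166.14 TPM.

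**Figure D5:**
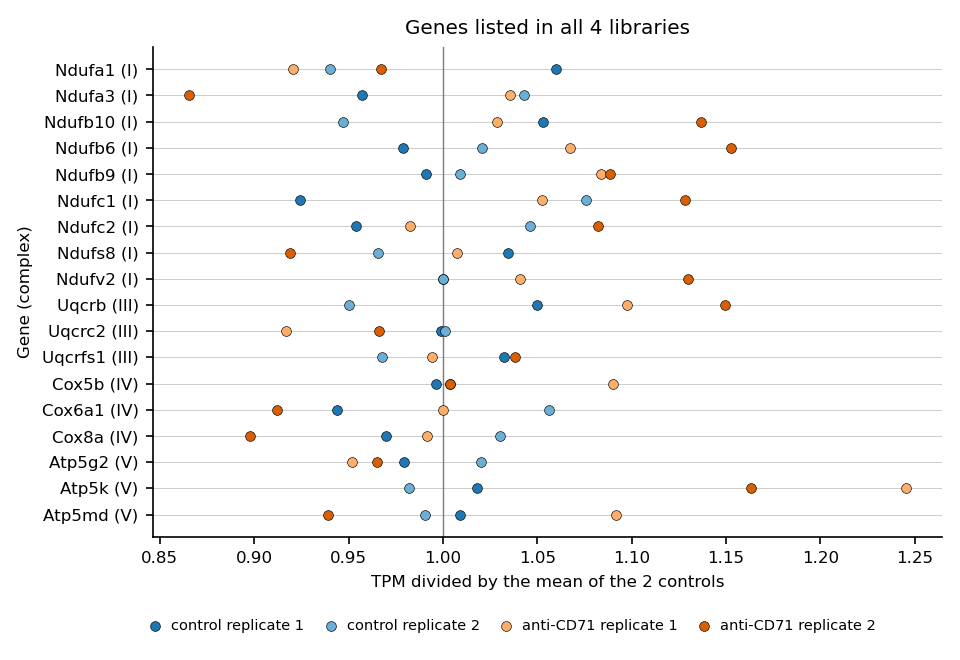
TPM of the 18 members tested over 4 libraries, each divided by the mean of its 2 controls; each point is 1 library and the vertical line marks the control mean. Both anti-CD71 libraries lie above both controls in 6 genes, among which Atp5k has the largest change (log2 change 0.27), while in Atp5md they lie on opposite sides.

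Another 17 members had some of their TPM in the transcripts listed for anti-CD71 replicate 1, and 59 had none. Partial values were compared over the same transcripts only and have no test in the comparison of 4 libraries. Atp5g1 had 182.32 and 197.31 TPM in the controls against 199.02 and 199.10 TPM after anti-CD71, over transcripts with 60.63% of its TPM. Cyc1 had 100.79 and 101.62 TPM against 109.03 and 108.01 TPM, over 56.77% of its TPM, so that both treated libraries were above both controls. Atp5j had 152.66 and 155.69 TPM in the controls, over 49.64% of its TPM, against 143.83 TPM in anti-CD71 replicate 1, below both, and 171.77 TPM in replicate 2, above both. Its higher total in replicate 2 was thus not matched over these transcripts in replicate 1. Atp5g3 had 530.39 and 482.51 TPM against 514.63 and 571.36 TPM, and Ndufa10 had 105.06 and 102.27 TPM against 103.18 and 110.41 TPM. For Ndufs3 and Ndufa7 the listed transcript held an equal share with other RefSeq copies. Ndufs3 had 74.94 and 72.36 TPM against 88.39 and 76.69 TPM per copy, and Ndufa7 had 89.38 and 89.81 TPM against 84.75 and 89.46 TPM. For Ndufs3 both treated libraries were above both controls, replicate 1 by more, while for Ndufa7 replicate 1 was below the controls and replicate 2 between them. No value of Ndufaf4, Cox7c or Ndufb7 was listed for anti-CD71 replicate 1.

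Other genes of mitochondrial energy metabolism were taken from lists written for this work. The 39 tested assembly factors of complexes I to V had a median log2 change of 0.11 over 3 libraries. Of these, 24 were above 0 (61.5%, against 48.6% of all genes). The 12 electron and metabolite carriers include cytochrome c, the ADP/ATP and phosphate carriers and the VDAC pores. Their median was 0.15, and their changes were all above 0, against 48.6% of all genes and 57.5% of the abundant genes. Cycs, the somatic cytochrome c that joins complexes III and IV, had 96.69 and 84.10 TPM in the controls and 136.80 TPM in anti-CD71 replicate 2. The treated library was above both controls, with a log2 change of 0.60 (SE 0.11, limma adjusted p = 0.0611). Slc25a5, an ADP/ATP carrier, had 598.11 and 543.19 TPM in the controls against 632.69 and 631.96 TPM in the anti-CD71 libraries, with a log2 change of 0.15 (SE 0.07, limma adjusted p = 0.230) over 4 libraries.

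The 16 genes of the citric acid cycle and pyruvate dehydrogenase had a median of 0.12 over 3 libraries. Of these, 12 were above 0 (75%, against 48.6% of all genes and 57.5% of the abundant genes). Dlat, a subunit of pyruvate dehydrogenase, had 30.58, 30.64 and 39.77 TPM, a log2 change of 0.37 (SE 0.09, limma adjusted p = 0.0922). The 12 tested regulators of mitochondrial biogenesis had a median of 0.01. None was called (against 2.86% of all genes) or had an unadjusted limma p under 0.05 (against 24.7%). Ppargc1a, a coactivator of this programme, had at most 0.29 TPM and was not tested. Nrf1 had 27.81, 27.48 and 26.66 TPM and Tfam, which maintains mitochondrial DNA, 28.27, 27.82 and 30.37 TPM, in each case within 3 TPM over the 3 libraries. Genes of the mitochondrial ribosome, which makes the subunits encoded by mitochondrial DNA, had a median of 0.13 over 78 genes. Of these, 71 were above 0 (91%, against 57.5% of the abundant genes). The cytosolic ribosome had a median of 0.06 over 77 genes, with 55 above 0 (71.4%, against 57.5% of the abundant genes) and 22 below. Rpl14 and Rpl37 of this list were called higher over 3 libraries (log2 changes 0.35 and 0.36), where 2.86% of all genes were called. Over 4 libraries the medians were 0.03 for 11 assembly factors and 0.10 for 4 carriers. They were 0.19 for 15 mitochondrial and 0.09 for 19 cytosolic ribosomal genes. Over these 4 libraries 0 were called by limma in each of these lists, against 4.29% of all genes. In that order 0, 0, 6 (40%) and 4 (21.1%) had an unadjusted limma p under 0.05, against 26.6% of all genes. Whether any of these lists differed from the subunits was not tested. The 13 genes that mitochondrial DNA encodes were not matched and were not analysed here.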

How the data were processed

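Bulk tumour RNA from 2 control and 2 anti-CD71 libraries was measured. The authors deposited TPM per RefSeq transcript, and the submitters' processing notes name the build GRCm38.p6. Their aligner and quantification tool were not given in the sources used here. Gene symbols came from a RefSeq table of that build, which matched 58425 of 59881 transcripts, and TPM were added per gene. Copies annotated at a further locus (1744 transcripts) counted toward their gene. Transcripts without a symbol held 1.42% to 1.55% of the TPM of a complete library.

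Differences were fitted with limma 3.58.1 (R 4.3.3) on log2(TPM + 1), with a variance prior that follows intensity, for genes with at least 1 TPM in 2 libraries. A call required an adjusted p (Benjamini-Hochberg over all genes tested) under 0.05. Log2 changes on this scale understate the change of low genes. Members, lists and comparisons were chosen with earlier results of these data known. Genes named by rule were the members with the largest changes and highest levels in each complex, those tested over 4 libraries, the cofactor subunits and the tissue isoforms; other members were named after their values were seen. TPM keeps no depth, so no counting interval is given. Sequences came from RefSeq, GRCm38.p6. The separate values of 1 member are not reported here. Alternatives covered the pseudocount, the filter, scaling, the trend, curated transcripts, the listed share, the replicate block and each library left out.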

Additional observations from a re-analysis of the deposited data

How the results depend on the processing

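No member was called under any alternative that gave a test, over 3 or 4 libraries. The count of all genes called did depend on the setting. Over 4 libraries it was 67, against 1 without a filter, 8 with a filter of 1 TPM in 1 library, 4 without the intensity trend, 11 with curated transcripts, and 1 to 96 with a library left out (96 without anti-CD71 replicate 1, 33 without anti-CD71 replicate 2). With the replicate number as a block it was 3, with 0 members called and 1 at an unadjusted p under 0.05. Same-numbered libraries did not deviate together (correlation -0.006 over 1563 genes). That value rests on 1 difference per group, so it cannot settle whether same-numbered libraries were paired. Over 3 libraries no paired analysis was possible because 1 treated library remains. Over 3 libraries the count was 343, against 0 without a filter, 72 with a filter of 1 TPM in 1 library, 225 with median scaling and 35 without the trend. The cause of these differences was not tested. Median scaling moved the median log2 change over 3 libraries to 0.10 in complex I, 0.22 in its assembly factors, 0.11 in complex II, 0.06 in complex IV and 0.07 in complex V, and raised the members at an unadjusted p under 0.05 from 12 to 18. Without a filter, or with that of 1 library, the median of complex IV was -0.03. The assembly factors had 0.19 with a pseudocount of 0.1 and 0.20 with curated transcripts, which gave 0.06 in complex II. Over 4 libraries complex V had 0.06 with median scaling and 0.07 with a listed share of 50%. Leaving out 1 library gave medians over 4 libraries of 0.02 to 0.12 in complex I, -0.02 to 0.07 in III, -0.13 to 0.02 in IV and -0.05 to 0.13 in V. Over 3 libraries, where it leaves no test, it gave 0.13 to 0.20 for the assembly factors and 0.06 to 0.07 in complex II. Single genes that turned on 1 control were Ndufa4 (0.04 without control replicate 1, 0.34 without control replicate 2), Ndufa4l2 (-0.34 and 0.02), Ndufc1 (0.07 and 0.29) and Uqcrh (0.18 and -0.01).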
